A study of Mus musculus with 6 samples.

Results

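Carbonic anhydrases were examined in 3T3-L1 adipocytes, fat cells that form in culture from a clonal mouse preadipocyte line after hormonal induction. The array named 18193 genes. Apart from 7 isoforms kept as a separate list, 9 family genes were examined, Car2, Car3, Car4, Car5b, Car6, Car8, Car9, Car12 and Car13. The genes were chosen by family, with earlier results of these data in view, and each is represented by the probe set that was selected on its mean over the 6 arrays as the brightest of those annotated to its symbol alone. In all, 20 such probe sets carried the 9 symbols, and the others are reported beside them. Differences are given as a description.

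All cells were induced with insulin, 3-isobutyl-1-methylxanthine and dexamethasone and then kept in medium with insulin, to which the treatments were added for 5 days. In the first experiment the cells received ritonavir (20 µM), an HIV protease inhibitor, tenofovir (1 µM), a reverse transcriptase inhibitor, or ethanol (0.1%) as vehicle. In the second experiment all cells received ritonavir (20 µM), together with c9,t11-CLA (100 µM), t10,c12-CLA (100 µM) or DMSO (0.1%), where CLA is conjugated linoleic acid and its isomers differ in the position and geometry of their double bonds. DMSO was present in the second experiment alone, so vehicle and experiment cannot be told apart when its arrays are set against those of the first. The labels do not state whether DMSO was also given with the CLA isomers, or whether ethanol was present in the second experiment. The isomers and DMSO may therefore differ in vehicle too. Each of the 6 groups was 1 array of RNA pooled from 4 replicate experiments. There is thus no spread between replicates, and no difference was tested. How precisely any value is known is limited by the number of arrays.

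Values are log2 signals after robust multi-array averaging (RMA), so a difference of 1 is 2-fold. A gene was called detected if it reached the median of the whole table, 6.55, on at least 1 array, and 12385 genes did. Values under that level are named as such, since their order is not relied on. The arrays had medians between 6.54 and 6.56. The 3' and 5' control probe sets for actin lay between 0.19 and 0.54 apart, and those for Gapdh between -0.12 and -0.03. The label of adipocytes was checked with 8 marker genes, all of which were detected. Adipoq, the gene of adiponectin, lay between 10.18 on the ritonavir array and 14.82 on the tenofovir array, and Fabp4, a fatty acid binding protein, between 13.98 and 14.92. Cidec read 13.54 with ethanol and 7.34 with ritonavir, nearer to the level. The mean of the 8 was 13.43 with ethanol and 9.38 with ritonavir. Of the 8, 7 were at least 2-fold lower with ritonavir than with ethanol, where 6.39% of all detected genes were.

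Carbonic anhydrases interconvert carbon dioxide and water with bicarbonate and a proton. The family members differ in where they act: Car2, Car3 and Car13 are cytosolic, Car5b is mitochondrial, Car6 is secreted, Car4 is anchored at the cell surface, and Car9 and Car12 span the plasma membrane with the active site outside. Car8 has lost the catalytic activity. In fat cells bicarbonate is the substrate of pyruvate carboxylase and acetyl-CoA carboxylase on the route from glucose to fatty acids, and Car3 is one of the most abundant proteins of rodent adipose tissue.

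Of the 9 genes, 6 were detected (Car2, Car3, Car5b, Car6, Car9 and Car13) and 3 stayed under the table median on every array (Car4, Car8 and Car12). Just outside the level was Car12 with a highest value of 6.03, and the detected gene with the lowest peak was Car2 at 9.18. On the ritonavir array 5 of the 6 detected genes were at least 2-fold from ethanol, 4 lower and 1 higher, where 10.9% of all detected genes were at least 2-fold apart, 6.39% lower and 4.56% higher. When ritonavir was given with DMSO, 4 of 6 were at least 2-fold from ethanol, where the background was 4.51%. These comparisons share the ethanol array. With tenofovir 0 of 6 were, as were 0 of all 12385 detected genes (0%). Of the other 7 isoforms of the family 4 were detected, and 0 of these were at least 2-fold apart in these comparisons. The number of cells of a type and the RNA per cell cannot be told apart in such pooled material.

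**Figure D1:**
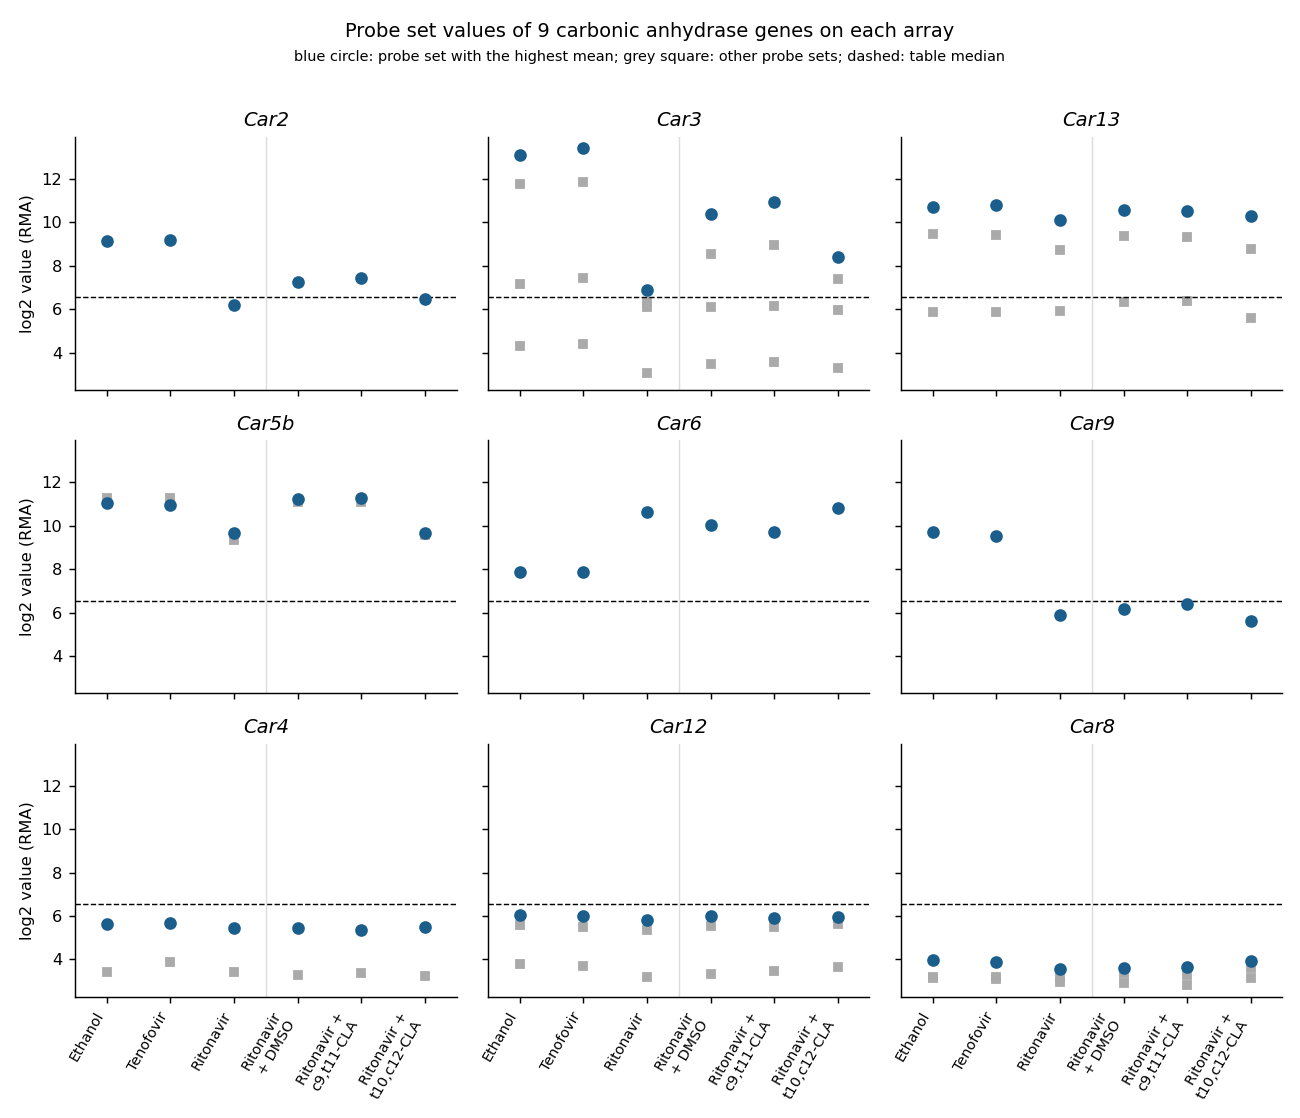
Values of every probe set of the 9 genes on the 6 arrays, in log2 units after RMA, with 1 point per array and no error bars since each group is 1 array; blue circles mark the probe set with the highest mean, grey squares the others and the dashed line the table median of 6.55. Car3 spans 6.90 to 13.41, Car6 is the detected gene that is higher on the 4 arrays with ritonavir, and Car4, Car8 and Car12 stay under the dashed line.

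RefSeq promoter windows (build GRCm38.p6, 250 bases before to 50 after the annotated start) were matched for 5 of the 9 genes, Car4, Car5b, Car6, Car9 and Car12. The 3 printed here belong to genes that were at least 2-fold apart between the ritonavir and ethanol arrays, each in a pattern of its own. They were searched for the core of the hypoxia response element, ACGTG or GCGTG on either strand, because Car9 is a textbook target of hypoxia-inducible factor. ACGTG was present in 19.6% and GCGTG in 32.4% of all 32851 promoter windows of this length, and either of them in 43.8%. Matches are in capitals, and the windows lie at chr4:43506776-43507075 on the plus strand for Car9, chr4:150201086-150201385 on the minus strand for Car6 and chrX:164027961-164028260 on the minus strand for Car5b.
Car9: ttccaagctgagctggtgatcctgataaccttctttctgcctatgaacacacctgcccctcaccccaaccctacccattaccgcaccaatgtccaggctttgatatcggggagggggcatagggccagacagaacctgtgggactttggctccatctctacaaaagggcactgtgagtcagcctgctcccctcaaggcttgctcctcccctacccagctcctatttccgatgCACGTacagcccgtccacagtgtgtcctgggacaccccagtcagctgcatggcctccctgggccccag
Car6: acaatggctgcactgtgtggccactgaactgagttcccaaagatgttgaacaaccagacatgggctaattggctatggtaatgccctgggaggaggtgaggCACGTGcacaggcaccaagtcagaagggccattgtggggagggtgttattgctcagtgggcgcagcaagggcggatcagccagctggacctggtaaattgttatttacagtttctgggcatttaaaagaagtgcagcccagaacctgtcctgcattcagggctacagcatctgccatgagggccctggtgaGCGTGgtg
Car5b: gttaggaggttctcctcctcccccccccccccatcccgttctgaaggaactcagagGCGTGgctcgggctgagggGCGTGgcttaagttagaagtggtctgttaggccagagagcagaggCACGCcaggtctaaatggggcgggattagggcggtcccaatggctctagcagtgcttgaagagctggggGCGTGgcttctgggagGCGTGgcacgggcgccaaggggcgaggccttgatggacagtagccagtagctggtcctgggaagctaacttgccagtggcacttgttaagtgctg
Car9 had 1 match to ACGTG, read as CACGT, whose first base lies at -18 from the start, close to where transcription begins. Car6 had CACGTG, which reads ACGTG on both strands and thus counts as 2 overlapping matches at -149 and -148, and 1 match to GCGTG at 43 inside the transcribed stretch. Car5b had 5 matches to GCGTG and 0 to ACGTG. Car4 had 1 match to ACGTG and Car12 0 to either. A match describes the letters in these windows and is not evidence of binding.

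Car3, a cytosolic enzyme of low catalytic activity that marks mature fat cells and slow muscle, had the widest range of the 9 genes. Its probe set 1449434_at read 13.10 with ethanol, 13.41 with tenofovir and 6.90 with ritonavir. In the second experiment it read 10.41 with DMSO, 10.93 with c9,t11-CLA and 8.42 with t10,c12-CLA. The arrays with ethanol and tenofovir were thus the highest and the array of ritonavir alone the lowest, just over the table median, with the 3 arrays of the second experiment in between.

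The Car3 difference between ritonavir and ethanol was -6.19, or 73.2-fold lower, and 5 of the 12385 detected genes, Car3 among them, lay this far down. Ritonavir with DMSO was 6.42-fold lower than ethanol (-2.68) and 11.4-fold higher than ritonavir alone (3.51). Of all detected genes, 10 including Car3 were that much higher on the DMSO array than on the ritonavir array. Within the second experiment t10,c12-CLA was 3.99-fold lower than DMSO (-2.00) and 5.71-fold lower than c9,t11-CLA (-2.51). With c9,t11-CLA Car3 was 0.52 above DMSO, and 32 detected genes including it were as far up. With tenofovir it was 0.31 above ethanol.

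The other 3 probe sets of Car3 differed in size but not in direction against ethanol. The probe set 1460256_at read 11.75 with ethanol and 6.35 with ritonavir, a difference of -5.40, with -3.22 for ritonavir with DMSO. The probe set 1430584_s_at, whose suffix marks probes shared by several transcripts, read 7.17 with ethanol, 7.43 with tenofovir and between 5.95 and 6.15 on the 4 arrays with ritonavir, all 4 under the table median. It therefore shows the lower level with ritonavir (-1.09) but not the spread among these arrays, with -0.01 between DMSO and ritonavir alone and -0.13 between t10,c12-CLA and DMSO. The probe set 1453588_at was under the median on every array and differed by -1.25 between ritonavir and ethanol. With the mean of the 4 probe sets in place of the brightest, Car3 differed by -3.48 between ritonavir and ethanol and by -0.86 between t10,c12-CLA and DMSO, so that the size of its difference depends on the probe set.

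Likeness of pattern was measured as the root mean square distance between array profiles over the 6 arrays, each centred on its own mean, and the 3 nearest of the detected genes are named for each member that spans at least 1 log2 unit. Nearest to Car3 were Selenbp1 (0.38), the adipokine gene Retn (0.39) and the metalloreductase gene Steap4 (0.40). Retn differed by -6.57 between ritonavir and ethanol and by -3.02 between t10,c12-CLA and DMSO, and Selenbp1 by -5.44 and -1.93. Selenbp1 and Steap4 lay under the table median on 2 arrays each, those of ritonavir alone and of t10,c12-CLA. Car3 is also expressed in skeletal muscle, and of 8 muscle markers 3 were detected. Myog, Myh1, Myh4, Tnnt3 and Actn3 were under the table median on all 6 arrays, and the mean of the 8 lay between 6.08 and 6.31. The detected ones were Des, the gene of desmin, which read 8.98 with ethanol, 9.15 with tenofovir and 8.02 with ritonavir, a difference of -0.96, Ckm at -0.29 and Acta1 at -0.11. Des was thus lower with ritonavir as Car3 was, and the part of muscle-like cells in the Car3 values was not tested.

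Car2, the fast cytosolic isozyme, was likewise highest with ethanol and tenofovir and had a smaller range. Its 1 probe set, 1448752_at, read 9.16 with ethanol, 9.18 with tenofovir and 6.19 with ritonavir, and 7.24 with DMSO, 7.45 with c9,t11-CLA and 6.46 with t10,c12-CLA. The values with ritonavir alone and with t10,c12-CLA lay under the table median. The ritonavir array differed from ethanol by -2.98, or by -2.61 with values under the median raised to it, which is 7.87-fold and 6.1-fold lower. The array of ritonavir with DMSO was 3.78-fold below ethanol (-1.92).

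Against ritonavir alone, Car2 on the DMSO array was 1.06 higher, but 0.69 with raised values, so the count of the 6 detected members at least 2-fold higher there was 3 or, with raised values, 2, where 2.83% or 2.44% of all detected genes were. The array of t10,c12-CLA differed by -0.78 from DMSO and by -0.99 from c9,t11-CLA, neither of which reached 2-fold. The nearest profiles were those of Rasd1, a small GTPase induced by dexamethasone (0.05), the secreted phospholipase gene Pla2g2e (0.13) and the dipeptidase gene Cndp1 (0.13). Cndp1 lay under the table median on the 4 arrays with ritonavir. Rasd1 read 9.52 with ethanol, 6.63 with ritonavir and 7.62 with DMSO. Car2 is also known from osteoclasts and red cells. Of the osteoclast markers 3 of 5 were detected, with highest array mean 6.10, and Acp5, which encodes their acid phosphatase, read 6.65 with ethanol and, under the table median, 5.15 with ritonavir. Of 3 erythroid markers with a value 1 was detected, Klf1, at 6.68 with ethanol and, under the median, 6.23 with ritonavir. The part of these cell types in the Car2 values was not tested.

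Car13, the third cytosolic isozyme, was high on all arrays and differed little. Its probe set 1421307_at read 10.70 with ethanol, 10.81 with tenofovir, 10.10 with ritonavir, 10.56 with DMSO, 10.54 with c9,t11-CLA and 10.28 with t10,c12-CLA. The range was 0.71, and no comparison reached 2-fold. Ritonavir differed from ethanol by -0.60 and t10,c12-CLA from DMSO by -0.28. The probe set 1421308_at gave -0.76 and -0.56 for these comparisons. The probe set 1439620_at was under the table median throughout and gave 0.05 and -0.74, so it went with the others in the second comparison alone.

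Car13, Car1, Car3 and Car2 follow each other in this order among the protein-coding genes of mouse chromosome 3 in the RefSeq annotation of GRCm38.p6. Between ritonavir and ethanol the neighbours differed by -0.60, -0.91, -6.19 and -2.98, with Car1 under the table median on all 6 arrays. The flanking genes on the Car13 side, the ribosome biogenesis factor gene Rbis and the transcription factor gene E2f5, differed by -0.07 and -0.27. On the Car2 side Sirpb1a was not detected. The large differences in this stretch were thus those of Car3 and Car2, which lie next to each other.

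Car5b encodes the mitochondrial isozyme that supplies bicarbonate to pyruvate carboxylase. Its probe set 1447928_at read 11.03 with ethanol, 10.98 with tenofovir and 9.67 with ritonavir, and 11.25 with DMSO, 11.27 with c9,t11-CLA and 9.68 with t10,c12-CLA. The arrays of ritonavir alone and of ritonavir with t10,c12-CLA were thus lower than the other 4, a split read from these values themselves. No value was under the table median.

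The ritonavir array was 2.56-fold below ethanol (-1.35), whereas ritonavir with DMSO differed from ethanol by 0.22. The array of ritonavir with DMSO was 2.98-fold above that of ritonavir alone (1.57). With t10,c12-CLA Car5b was 2.97-fold below DMSO (-1.57), where 39 detected genes including it lay as low, and 3.03-fold below c9,t11-CLA (-1.60). The second probe set, 1419705_at, was also low on the arrays of ritonavir alone and of t10,c12-CLA, with differences of -1.93 for ritonavir against ethanol, -0.20 for ritonavir with DMSO against ethanol and -1.50 for t10,c12-CLA against DMSO. Since the ritonavir arrays with and without DMSO disagree, their mean differed from ethanol by -0.57, under 2-fold. Nearest in profile were the fatty acid desaturase gene Fads2 (0.12), the alcohol dehydrogenase gene Adh1 (0.12) and Apcdd1 (0.13). Apcdd1, a Wnt inhibitor, differed by -1.68 between ritonavir and ethanol and by 0.19 between ritonavir with DMSO and ethanol.

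Car6, the secreted isozyme known from saliva, was the detected member that was higher with ritonavir. Its probe set 1421001_a_at read 7.88 with ethanol and 7.85 with tenofovir, and 10.65 with ritonavir, 10.03 with DMSO, 9.70 with c9,t11-CLA and 10.80 with t10,c12-CLA. All 4 arrays with ritonavir were above both arrays without it, a split that was not counted over all detected genes. No value was under the table median. The ritonavir array was 6.85-fold above ethanol (2.78), and 19 of the 12385 detected genes, Car6 among them, were that far up. Ritonavir with DMSO was 4.45-fold above ethanol (2.15), with 13 genes as far up.

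In the second experiment the isomers lay on either side of DMSO for Car6. With t10,c12-CLA it was 0.77 higher than with DMSO and with c9,t11-CLA 0.33 lower, and the isomers were 2.14-fold apart (1.09). The suffix of the probe set marks probes that match several transcripts of the gene, so the secreted form and any intracellular form are not told apart. An intracellular form of Car6 is known as a stress-induced transcript that depends on the stress factor CHOP, the product of Ddit3. Ddit3, chosen after its values were seen, read 11.99 with ethanol and 12.09 with tenofovir, and 13.69, 13.58, 13.39 and 13.41 on the arrays of ritonavir alone, with DMSO, with c9,t11-CLA and with t10,c12-CLA. It was thus also higher on all 4 arrays with ritonavir, again without a count over all detected genes. Its isomer arrays were 0.02 apart, unlike those of Car6. A part of Ddit3 in the Car6 values was not tested.

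The profiles nearest to that of Car6 were those of the neurotrophic factor gene Gdnf (0.16), the cholesterol ester hydrolase gene Nceh1 (0.23) and Maoa, which encodes monoamine oxidase A (0.25). Gdnf was over the table median on 2 arrays, ritonavir alone at 7.45 and t10,c12-CLA at 7.62. Maoa read 9.57 with ethanol, 11.94 with ritonavir and 12.43 with t10,c12-CLA. On chromosome 4 the detected genes within a distance of 2 protein-coding genes of Car6 were Slc2a5 and Rere, which differed by -0.33 and 0.59 between ritonavir and ethanol.

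Car9 encodes the membrane-spanning isozyme that hypoxia-inducible factor switches on, with the active site outside the cell. Its 1 probe set, 1427013_at, read 9.71 with ethanol and 9.53 with tenofovir, and 5.87 with ritonavir, 6.17 with DMSO, 6.39 with c9,t11-CLA and 5.59 with t10,c12-CLA. All 4 arrays with ritonavir were under the table median and both arrays without it were well above. The share of all detected genes split in this way was not counted. The difference from ethanol was -3.84 for ritonavir and -3.54 for ritonavir with DMSO, or -3.16 for both with values raised to the table median, which is 8.93-fold. The arrays of ritonavir with DMSO and of ritonavir alone were 0.30 apart, but both values were under the table median, so this difference is not read. The differences between the arrays of the second experiment, -0.59 for t10,c12-CLA and 0.22 for c9,t11-CLA against DMSO, lie wholly under the table median and are not read further.

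Nearest to Car9 in profile were the growth factor gene Igf2 (0.27), Ranbp3l (0.30) and the haptoglobin gene Hp (0.34). Ranbp3l lay under the table median on all 4 arrays with ritonavir. Igf2 read 12.21 with ethanol, 9.20 with ritonavir and 9.17 with DMSO, all over the table median. The gene downstream of Car9 on chromosome 4, the tropomyosin gene Tpm2, differed by 0.12 between ritonavir and ethanol and by -1.37 between ritonavir with DMSO and ethanol. The gene on the other side, Arhgef39, differed by -1.33 and -0.90.

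Of 15 hypoxia-responsive genes with a value, all were detected, 8 were at least 2-fold lower on the ritonavir array than with ethanol and 0 higher, where 6.39% of all detected genes were lower. The median was -1.06, and that of all detected genes was 0.00. On the array of ritonavir with DMSO 8 of the 15, most but not all of them the same genes, were at least 2-fold lower. Of all detected genes 2.99% were, and the median of the 15 was -1.09. Bnip3, a mitophagy receptor gene, differed by -1.65 with ritonavir and by -0.62 with ritonavir and DMSO, and the adrenomedullin gene Adm by 0.03 and -1.09. Egln3, an oxygen-sensing prolyl hydroxylase, differed by -3.67 and -1.59, and Ankrd37 by -3.39 and -1.99. With t10,c12-CLA against DMSO 2 of the 15 were at least 2-fold lower, Ankrd37 at -1.59 and Egln3 at -1.41, where 1.05% of all detected genes were, and the median was -0.53. The part of hypoxia signalling in the Car9 values was not tested.

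**Figure D2:**
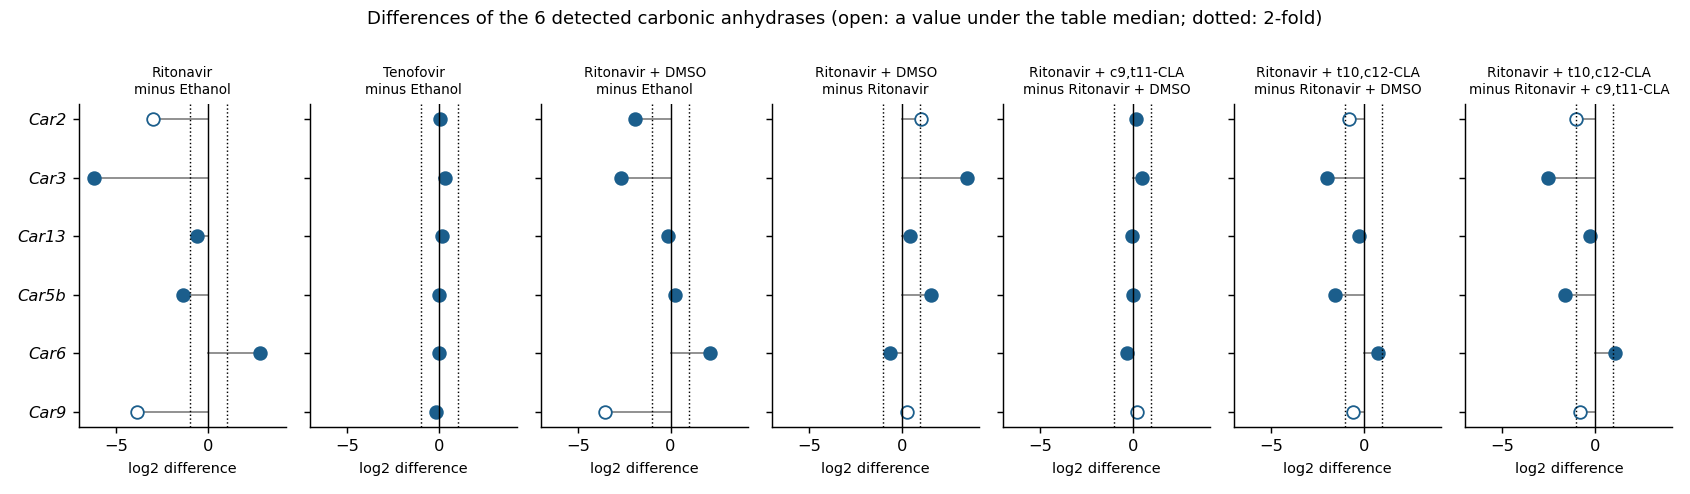
Log2 differences of the 6 detected carbonic anhydrases in 7 comparisons of single arrays, with dotted lines at 2-fold and open circles where at least 1 of the values lies under the table median. With ritonavir alone and with ritonavir and DMSO, Car9 (-3.84 and -3.54) and Car6 (2.78 and 2.15) differ at least 2-fold from ethanol. So do Car3 (-6.19 and -2.68) and Car2 (-2.98 and -1.92), while Car5b differs by -1.35 and 0.22.

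The 3 members under the table median have no reliable order across arrays. Car4, the glycolipid-anchored surface isozyme, lay between 5.37 and 5.69, Car12, the other membrane-spanning isozyme, between 5.81 and 6.03, and Car8, the inactive family member, between 3.54 and 3.96. Their further 5 probe sets were under the median as well. Car12 is, like Car9, a known target of hypoxia-inducible factor, and it was under the table median with every treatment.

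The second experiment set the CLA isomers, at equal dose, against DMSO and against each other. With c9,t11-CLA against DMSO 0 of 6 were at least 2-fold apart, against 0.00807% of all detected genes, and the differences lay between -0.33 for Car6 and 0.52 for Car3. With t10,c12-CLA 2 of 6 were at least 2-fold lower, Car3 and Car5b, and 0 higher, where 1.05% of all detected genes were lower and 1.83% apart in either direction. The 6 members had a median of -0.69 and all detected genes one of 0.02. Directly between the isomers 3 of 6 were at least 2-fold apart, Car3 and Car5b lower and Car6 higher with t10,c12-CLA, where 1.53% of all detected genes were lower, 0.953% higher and 2.48% apart. These comparisons share arrays, and with 1 array each the differences have no interval.

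Between ritonavir with DMSO and ritonavir alone 3 of 6 members were at least 2-fold higher with DMSO, Car3, Car5b and Car2, and 0 lower, where the background was 2.83% higher and 4.91% apart. Car6 differed by -0.62. Between ritonavir with DMSO and ethanol, Car5b and Car13 differed by 0.22 and -0.14, where ritonavir alone gave -1.35 and -0.60. Car3 and Car2 differed by -2.68 and -1.92, where ritonavir alone gave -6.19 and -2.98. Car6 differed by 2.15 and 2.78. Car9 differed by -3.54 and -3.84, with both of its ritonavir values under the table median. This order of listing was chosen after the values were seen. The adipocyte markers differed between these arrays too, with a median of -4.03 for ritonavir and of -0.96 for ritonavir with DMSO against ethanol over the 8 detected. Their array means ranged from 9.38 to 13.43. Preadipocyte and fibroblast markers had medians of 0.46 and -0.65 in these comparisons, with Thy1 at 1.67 and -0.45 and Pdgfrb at 1.42 and 0.17. On the DMSO array 7 of the 8 adipocyte markers were at least 2-fold higher than with ritonavir alone (median 3.12), where 2.83% of all detected genes were. With t10,c12-CLA 5 of the 8 were at least 2-fold lower than with DMSO (median -1.32), where 1.05% of all detected genes were. Against c9,t11-CLA 6 of the 8 were lower (median -1.62), where 1.53% were. The part of the extent of fat cell maturation in the carbonic anhydrase values was not tested.

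**Figure D3:**
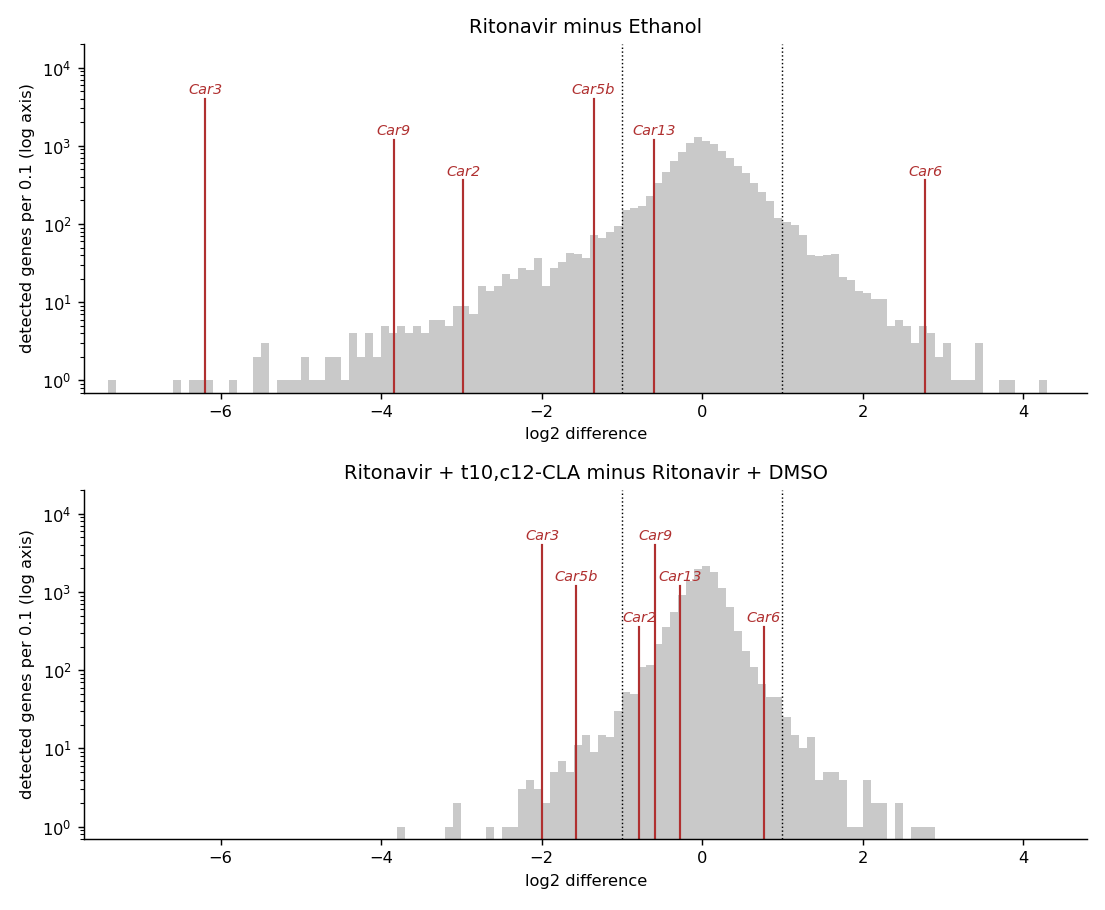
Distribution of the log2 differences of the 12385 detected genes (grey, log axis for the number of genes per 0.1) with the 6 detected carbonic anhydrases as red lines, whose heights carry no value; the dotted lines mark 2-fold. Between ritonavir and ethanol Car3 (-6.19), Car9 and Car2 lie in the lower tail and Car6 (2.78) in the upper one, and between t10,c12-CLA and DMSO Car3 (-2.00) and Car5b (-1.57) lie in the lower tail.

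Of the other 7 isoforms of the family, those that were detected gave small differences. Car7, Car11, Car14 and Car15 were detected, and 0 of 4 were at least 2-fold apart in any of the 7 comparisons. Among all detected genes the share apart lay between 0% for tenofovir and 10.9% for ritonavir, each against ethanol. A count of 0 of 4 is thus near the background and does not set these isoforms apart from other genes. The median of the 4 for ritonavir against ethanol was -0.06. Car7 read 7.71 with ethanol, 7.86 with ritonavir and 8.24 with t10,c12-CLA, and Car11, a member without known catalytic activity, 7.87, 7.72 and 7.54. Car1, Car5a and Car10 were under the table median on every array.

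Enzymes that use bicarbonate were lower as a group for ritonavir against ethanol and for t10,c12-CLA against DMSO, in both of which Car5b was lower too. Of 7 detected carboxylases all 7 lay below 0 for ritonavir against ethanol, with a median of -0.67 where that of all detected genes was 0.00, and 2 were at least 2-fold lower, where 6.39% of all detected genes were. On the array of ritonavir with DMSO 0 of the 7 were at least 2-fold from ethanol, 2 lay above 0 and 5 below, and the median was -0.21. Pcx, the gene of pyruvate carboxylase, read 13.58 with ethanol, 11.77 with ritonavir, 13.31 with DMSO and 12.21 with t10,c12-CLA, a difference of -1.82 with ritonavir and -0.27 with ritonavir and DMSO from ethanol. Mccc2, a subunit of methylcrotonyl-CoA carboxylase, differed by -1.22 and -0.75. For t10,c12-CLA against DMSO all 7 again lay below 0, with a median of -0.77 where that of all detected genes was 0.02, and 1 was at least 2-fold lower, Pcx at -1.10, where 1.05% of all detected genes were. Pccb, a subunit of propionyl-CoA carboxylase, differed by -0.81. Pcx and Car5b were both lowest on the arrays of ritonavir alone and of t10,c12-CLA. The adipocyte markers had medians of -4.03 for ritonavir against ethanol and -1.32 for t10,c12-CLA against DMSO. A link between Car5b and the carboxylases was not tested.

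Bicarbonate and proton transport genes had no common direction. Of 6 detected bicarbonate transporters 1 was at least 2-fold higher with ritonavir than with ethanol and 0 lower, with a median of -0.16. Of all detected genes 4.56% were higher and 6.39% lower. The anion exchanger gene Slc4a3 differed by 1.25 on the ritonavir array but by 0.14 with DMSO, and the sodium bicarbonate cotransporter gene Slc4a4 by -0.77 with ritonavir and by -0.77 with t10,c12-CLA against DMSO. Slc26a6 differed by -0.60 in the latter comparison. Of 4 detected genes of proton and lactate export 0 were at least 2-fold apart in these comparisons. Of all detected genes 10.9% were for ritonavir and 4.51% for ritonavir with DMSO, each against ethanol. For t10,c12-CLA against DMSO 1.83% were. Bsg, which encodes the chaperone of the lactate transporters, differed by -0.74 with ritonavir and -0.75 with ritonavir and DMSO from ethanol, and the proton exchanger gene Slc9a5 by 0.79 with t10,c12-CLA against DMSO.

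**Figure D4:**
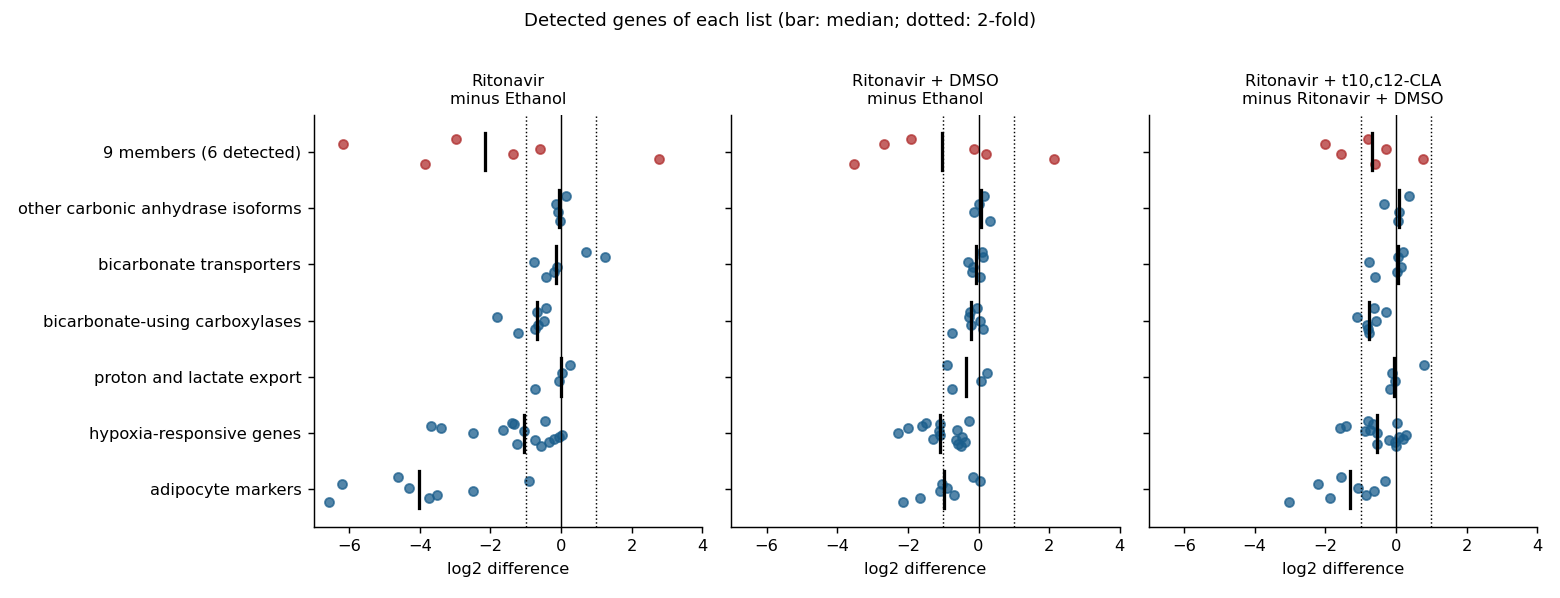
Log2 differences of the detected genes of each list in 3 comparisons, 1 point per gene, with the median as a bar and dotted lines at 2-fold. The carboxylases lie below 0 as a whole for ritonavir against ethanol (median -0.67) and t10,c12-CLA against DMSO (-0.77), while the other carbonic anhydrase isoforms stay close to 0.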

How the data were processed

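Per the labels' protocols, each group's RNA was a pool of 4 replicate experiments, hybridised to 1 Affymetrix mouse array. The authors deposited log2 values of 45101 probe sets, made with RMA in Affymetrix Expression Console per the submitters' processing notes, without version or settings. RMA equalises the distributions of the arrays, which hides a shift common to most genes, and it can compress bright values.

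Names came from the platform annotation, updated by gene identifier. Control probe sets aside, 34945 had 1 symbol, and 932 with several were not used. For 7 comparisons the log2 difference of each gene was taken, and those reaching 2-fold were counted among the detected genes. The members and lists were chosen with earlier results of these data known. Named genes are the members, up to 2 detected genes of each list with the largest difference for ritonavir against ethanol and for t10,c12-CLA against DMSO, and the 3 nearest profiles of each member, besides Ddit3, Adipoq, Fabp4, Bnip3 and Adm, chosen after their values were seen, undetected list members and chromosomal neighbours. Lists of macrophage and epithelial markers were also fixed. For ritonavir against ethanol 1 of 3 detected macrophage markers (Cd68, 1.83) was at least 2-fold higher, where 4.56% of all detected genes were. Of 4 detected epithelial markers 2 (Krt19, -2.45, and Krt18, -2.12) were at least 2-fold lower, ending under the table median. Of all detected genes 6.39% were lower in this comparison. The alternatives were other choices of probe set, detection level, normalization and threshold. The steps were tested on simulated data. Software was Python 3.11.15, numpy 2.4.6, pandas 2.3.3, statsmodels 0.14.6 and matplotlib 3.10.9.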

Additional observations from a re-analysis of the deposited data

How the results depend on the processing

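Alternatives tried were averaging a gene's probe sets, the second highest probe set, and only probe sets without an x, s or a suffix. The last leaves Car6 without a value, since its probe set has the a suffix, for several transcripts of the same gene. Others were no detection filter, a stricter one at 8.77, values raised to the table median, quantile normalization again and lowess detrending (span 0.3). The threshold was also set to 1.5-fold or 3-fold. For ritonavir against ethanol the mean of the arrays of ritonavir alone and with DMSO was also used. Of 71 counts of members at least 2-fold apart under these alternatives 66 stayed within 1.5 times the main count. These include all counts for tenofovir against ethanol and for c9,t11-CLA against DMSO, which were 0 throughout. Car2, Car6 and Car9 have 1 probe set each, so averaging or taking the second highest could not change their values. For ritonavir with DMSO against ritonavir the count of 3 became 1 at 3-fold. For t10,c12-CLA against DMSO the count of 2 became 1 with averaged probe sets, 5 at 1.5-fold and 1 at 3-fold. For t10,c12-CLA against c9,t11-CLA the count of 3 became 5 at 1.5-fold. No called difference of a single member changed sign under these alternatives, and 41 of 251 moved by more than 0.113, a robust SD taken over detected genes of tenofovir minus ethanol, which is not a replicate spread. No paired analysis was possible because each group is 1 array. Signal under the table median limits Car9 on the arrays with ritonavir, and Car2 on 2 of them.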
